A study of Mus musculus with 26 samples.

Results

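Kupffer cells, the macrophages that reside in liver sinusoids, were compared between C57BL/6J and BALB/cJ mice after lipopolysaccharide (LPS), a component of the outer membrane of gram-negative bacteria. Open chromatin was profiled with ATAC-seq (a transposase inserts adapters into accessible DNA), and the members of the comparison are all peaks on chromosomes 1 to 19 of the inbred count table with a mean normalised count above 16 over the LPS libraries. These were 58253 of 94171 autosomal peaks. The compared groups were 3 libraries from C57BL/6J and 2 libraries from BALB/cJ male mice, young adults of the inbred, genetically unmodified strains, which were fasted overnight and given 0.1 mg/kg Escherichia coli O114:B4 LPS into the peritoneum 2 h before the cells were isolated. The numbers per strain follow the sample labels and the count table; a legend in the study gives them the other way round. In addition, 4 control libraries of each strain came from males that the labels describe as fasted and uninjected, 4 such libraries from the inbred strain A/J entered the model but no comparison, and 5 libraries came from LPS-treated males of CB6F1/J, the first-generation hybrid of both strains. The controls received no sham injection, so LPS and the injection itself cannot be told apart in them. The livers were perfused with flavopiridol, an inhibitor of transcription, and the cells were sorted as CD45 positive, CD146 negative and F4/80 high. The labels number the libraries but tie none to an animal by name. P-values of the inbred comparisons measure the spread between libraries within all inbred groups, treated and control.

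Macrophages sense LPS through the receptor TLR4 with its partner MD-2. The adaptors MyD88 and TRIF then switch on NF-kB, AP-1 and interferon regulatory factors, which act at enhancers that lineage factors such as PU.1 have already opened. Inbred strains differ at many positions in such enhancers. In a first-generation hybrid both parental alleles lie in one nucleus and meet the same factors and the same treatment, so an allele difference there is measured without a difference in environment.

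The sequences below show peaks on which the results for single genes turn, so that their letters can be read beside the counts; they were chosen after their values were seen. Each is the peak itself on the plus strand of mm10, the C57BL/6J reference, taken from RefSeq's GRCm38 genome. The BALB/cJ sequence was not analysed here. Capitals mark matches on either strand to AP-1 (TGANTCA), the arm of the MAF element (TGCTGAC), PU.1 (GAGGAAGT), C/EBP (TTGCNNAA), IRF (GAAANNGAA) or NF-kB (GGGNNTTCC). The first 6 peaks were higher in BALB/cJ and the other 4 higher in C57BL/6J.
Ndfip2, chr14:105300679-105300879: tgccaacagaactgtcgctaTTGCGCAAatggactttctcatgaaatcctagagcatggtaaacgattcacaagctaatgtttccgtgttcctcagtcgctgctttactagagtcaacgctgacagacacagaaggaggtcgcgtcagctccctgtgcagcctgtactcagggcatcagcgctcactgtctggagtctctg
Ifit1, chr19:34673629-34673829: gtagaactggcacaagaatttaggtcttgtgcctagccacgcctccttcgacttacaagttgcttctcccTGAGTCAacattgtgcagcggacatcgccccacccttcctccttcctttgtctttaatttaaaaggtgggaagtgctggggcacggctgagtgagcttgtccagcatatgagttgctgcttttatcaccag
Ifi44, chr3:151749903-151750103: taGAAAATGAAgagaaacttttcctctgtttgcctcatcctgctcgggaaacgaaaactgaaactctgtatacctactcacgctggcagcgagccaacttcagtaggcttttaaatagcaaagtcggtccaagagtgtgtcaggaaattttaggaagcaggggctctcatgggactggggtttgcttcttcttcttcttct
Rsad2, chr12:26438810-26439010: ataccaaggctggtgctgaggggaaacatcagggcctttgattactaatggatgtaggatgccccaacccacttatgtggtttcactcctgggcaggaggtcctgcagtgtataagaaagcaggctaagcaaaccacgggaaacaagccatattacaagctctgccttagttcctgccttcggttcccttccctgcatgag
Osm, chr11:4232760-4232960: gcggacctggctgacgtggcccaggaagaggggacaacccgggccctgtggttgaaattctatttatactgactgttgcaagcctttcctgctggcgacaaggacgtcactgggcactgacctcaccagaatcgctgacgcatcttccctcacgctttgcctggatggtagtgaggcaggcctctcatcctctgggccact
Acod1, chr14:103048833-103049033: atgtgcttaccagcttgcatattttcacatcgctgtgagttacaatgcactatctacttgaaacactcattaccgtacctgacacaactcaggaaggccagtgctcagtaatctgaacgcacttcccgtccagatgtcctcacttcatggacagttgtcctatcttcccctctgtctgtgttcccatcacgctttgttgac
Nlrp1b, chr11:71230758-71230958: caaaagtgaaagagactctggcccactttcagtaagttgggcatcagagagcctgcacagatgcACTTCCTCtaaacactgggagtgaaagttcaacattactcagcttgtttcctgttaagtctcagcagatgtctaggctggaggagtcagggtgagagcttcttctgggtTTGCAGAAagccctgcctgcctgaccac
Il10, chr1:131050139-131050339: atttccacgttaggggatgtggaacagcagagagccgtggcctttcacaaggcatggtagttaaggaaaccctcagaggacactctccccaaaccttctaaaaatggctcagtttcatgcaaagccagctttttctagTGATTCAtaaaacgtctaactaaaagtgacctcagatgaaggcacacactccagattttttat
Il12b, chr11:44425785-44425985: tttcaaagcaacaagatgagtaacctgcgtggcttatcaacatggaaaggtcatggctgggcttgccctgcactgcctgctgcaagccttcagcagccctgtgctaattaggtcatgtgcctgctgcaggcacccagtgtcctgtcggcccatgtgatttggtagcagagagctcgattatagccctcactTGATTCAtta
Slc7a2, chr8:40851092-40851292: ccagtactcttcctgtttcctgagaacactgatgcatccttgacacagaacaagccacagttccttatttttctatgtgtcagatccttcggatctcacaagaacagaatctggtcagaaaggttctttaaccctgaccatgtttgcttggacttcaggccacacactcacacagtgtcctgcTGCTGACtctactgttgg
An AP-1 match lay in the peaks near Ifit1, Il10 and Il12b, a MAF arm in that near Slc7a2, an IRF match at the promoter of Ifi44, a C/EBP match in that near Ndfip2, and a PU.1 and a C/EBP match at the promoter of Nlrp1b. The peaks near Rsad2, Osm and Acod1 held none of these letters.

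The 5 LPS libraries held between 2.81 M and 5.05 M autosomal tags in the counting windows, and the mitochondrial share of the tags in peaks ranged from 18.6% to 28.7%. C57BL/6J library 1 was the shallowest. Its log2 values correlated at 0.80 and 0.74 with the other C57BL/6J libraries, which correlated at 0.89 with each other, and the BALB/cJ pair correlated at 0.88 (across peaks, which are not replicates). Library 1 also held 1.19% of its tags in peaks made mostly of repeated sequence, against 0.498% and 0.536% in C57BL/6J libraries 2 and 3 and 1.03% and 0.763% in the BALB/cJ libraries. Kupffer cell markers had summed promoter counts of 456 to 602 in C57BL/6J and 447 to 488 in BALB/cJ. None of the 7 tested promoters was called, where 2.69% of all tested peaks within 1 kb of a start were called. The Clec4f promoter, with 14.0, 6.83 and 7.97 against 23.6 and 21.2, fell below the minimum for testing. No promoter peak was listed for the 8 lymphocyte markers, and the one promoter peak each of the hepatocyte markers (Ass1) and the stellate cell markers (Col1a1) stayed at or below 20.7 in every library. The 2 of 8 neutrophil markers with a promoter peak summed to 32.3 to 70.1 in C57BL/6J and 46.3 to 57.5 in BALB/cJ, and the 4 of 7 sinusoidal endothelium markers to 42.1 to 62.1 and 53.0 to 79.5. The 3 of 8 monocyte markers with a promoter peak summed to 36.6 to 50.4 in C57BL/6J and 70.7 to 77.8 in BALB/cJ. Of these Cx3cr1 was higher in BALB/cJ, whereas Plac8 had 21.0, 34.2 and 32.7 in C57BL/6J against 6.12 and 29.2 and was not called. In bulk samples fewer open cells and less accessibility per cell cannot be told apart. All C57BL/6J LPS libraries carry one date in their names and both BALB/cJ LPS libraries another, 1 week earlier, so strain and the date in the name cannot be told apart within these libraries.

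Accessibility differed at 2949 peaks (5.06% of tested peaks; edgeR quasi-likelihood test, Benjamini-Hochberg adjusted p under 0.05 and an absolute log2 ratio over 1). Of these, 1377 were higher in C57BL/6J (2.36% of tested peaks) and 1572 were higher in BALB/cJ (2.7%). The median log2 ratio over all tested peaks was 0.01, with a median absolute value of 0.37. Peaks higher in C57BL/6J had a median log2 ratio of 2.24 and those higher in BALB/cJ one of -2.01. Absolute log2 ratios over 3 were found in 455 of the C57BL/6J-higher peaks (33%) and in 331 of the BALB/cJ-higher peaks (21.1%). The libraries of the strains did not overlap at 1373 and 1568 of these peaks, respectively, while they did not overlap at 36.7% of all tested peaks. At 109 C57BL/6J-higher peaks neither BALB/cJ LPS library had a tag, and at 41 of them the 4 BALB/cJ control libraries had none either. The converse held at 17 BALB/cJ-higher peaks, and at 1 of them also in the C57BL/6J controls. These counts are not alike, since 3 C57BL/6J LPS libraries had to be empty for the converse but only 2 BALB/cJ LPS libraries otherwise. All peaks also lie on mm10, the C57BL/6J reference, so longer sequence present only in BALB/cJ could not be counted. The counts rested on the BALB/cJ libraries: without BALB/cJ library 1 the calls were 1193 and 670, and without BALB/cJ library 2 they were 698 and 535, while leaving out any C57BL/6J library gave 2314 to 2860 calls in all.

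**Figure D1:**
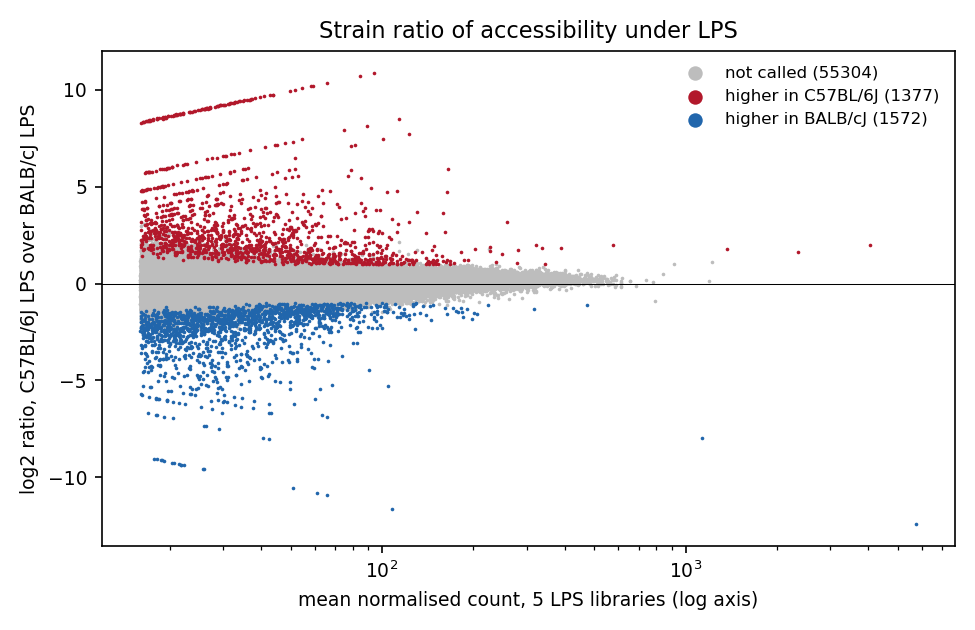
Log2 ratio of C57BL/6J over BALB/cJ LPS libraries (vertical axis) against the mean normalised count of the 5 LPS libraries (horizontal log axis); each point is 1 of 58253 tested peaks, with 1377 higher in C57BL/6J in red and 1572 higher in BALB/cJ in blue. The called peaks lie toward low counts, with medians of 33.7 (C57BL/6J-higher) and 31.9 (BALB/cJ-higher), beside 39.1 for all tested peaks.

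Introns held 790 BALB/cJ-higher and 501 C57BL/6J-higher peaks among 24129, whereas intergenic peaks were nearly balanced, with 615 and 599 among 19627. Promoter peaks were called less often, with 2.65% of 11291, and 208 of these were higher in C57BL/6J versus 91 in BALB/cJ. The median log2 ratio was 0.20 at promoter peaks and -0.09 at intronic peaks. The share of tags in promoter peaks was 36.1% to 39.7% in the C57BL/6J libraries and 33.2% and 34.0% in the BALB/cJ libraries, so the direction at promoters moved with a difference in promoter share over whole libraries, and its part in the calls was not tested. On single chromosomes 3.33% (chromosome 2) to 7.67% (chromosome 8) of peaks were called. Of 1130 windows of 2 Mb, 44 held 10 or more calls and together 631, and 315 held none, but the windows differed in how many peaks were tested. Thus 13 calls were 37.1% of 35 tested peaks at 74 to 76 Mb on chromosome 5 and 5.28% of 246 at 34 to 36 Mb on chromosome 17, the latter close to the share over all peaks. Among 787 neighbouring pairs of called peaks 1 to 50 kb apart, 633 (80.4%) had the same direction, where the overall split of directions alone would give 50.2%. At Ank2, which encodes ankyrin-B, 12 of 20 peaks were higher in C57BL/6J versus 1 in BALB/cJ. At Lnx1, a ubiquitin ligase gene, 9 of 14 were higher in BALB/cJ and none in C57BL/6J, and all 7 tested peaks nearest to Btbd11 were higher in C57BL/6J.

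Many of the largest ratios came from peaks open in one strain and without tags in the other. At the peak in an intron of Ndfip2, an adaptor of NEDD4 ubiquitin ligases, the normalised counts were 0, 0 and 0 in C57BL/6J against 275 and 264 in BALB/cJ. The groups lay far apart, and accessibility was at least 282-fold higher in BALB/cJ, counting a floor of 3 tags over the C57BL/6J libraries. It was also far higher in BALB/cJ controls, with a mean of 163 against 0.932. On the hybrid alleles the normalised counts were 14.9 ± 5.56 for C57BL/6J and 293 ± 58.2 for BALB/cJ (SD, n = 5), an allele log2 ratio of -4.28 ± 0.19 (SE). Intronic peaks of Nrcam (0, 0 and 0 against 167 and 162) and Dpy19l3 (0, 0 and 0 against 137 and 117) had the same form, with bounds of 172-fold and 133-fold. In the other direction, the promoter peak of Nlrp1b, an inflammasome sensor gene, had 71.5, 67.5 and 59.7 in C57BL/6J against 0 and 0 in BALB/cJ. It was at least 50.3-fold higher in C57BL/6J. A second Nlrp1b peak 20.8 kb upstream of that start had 181, 174 and 114 against 0 and 0, at least 119-fold higher. Neither had a tag in any BALB/cJ control, while the C57BL/6J control means were 93.5 and 238. Peaks near Smchd1 (132, 131 and 159 against 0 and 0) and Zfp493 (115, 102 and 112 against 0 and 0) were at least 107-fold and 83.2-fold higher in C57BL/6J. The promoter of the chemokine gene Ccl27a (60.3, 53.0 and 49.4 against 0 and 0) was at least 41.1-fold higher. Tags were mapped to a BALB/cJ genome made from single-base and short length variants, so whether a sequence is deleted or rearranged in BALB/cJ was not tested at any of these peaks. Nlrp1b and Zfp493 have paralogs, and 55.2% of the 30-base words of the Ccl27a peak occur elsewhere in mm10, so counts at them are uncertain.

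Genes of the TLR4 complex with its adaptors and kinases had 169 tested peaks, of which 7 were higher in C57BL/6J versus 8 in BALB/cJ (8.88%, against 5.06% of all peaks), with a median log2 ratio of -0.06. Without BALB/cJ library 1 these counts were 5 and 5, and without BALB/cJ library 2 they were 4 and 2. Ly96 encodes MD-2, the LPS-binding partner of TLR4, and the called peaks nearest to it went in both directions. One 14.6 kb inside the gene had 25.2, 67.5 and 69.3 in C57BL/6J against 0.874 and 0 in BALB/cJ. All C57BL/6J libraries lay above both BALB/cJ libraries, and the log2 ratio was 6.71 ± 1.13 (SE, adjusted p = 1.5e-04). The C57BL/6J allele was also higher in the hybrid, with an allele log2 ratio of 3.87 ± 0.30. One 59 kb away had 15.4, 12.8 and 32.7 against 52.4 and 70.7 (log2 ratio -1.56 ± 0.37, adjusted p = 0.0079), and this call was lost without C57BL/6J library 2 or BALB/cJ library 2 (highest adjusted p = 0.18). A peak upstream of Cd180, a TLR4-like receptor that dampens LPS signals, had 42.1, 54.7 and 59.7 against 0.874 and 0.884, and a peak near Tbk1, a kinase that activates IRF3, had 43.5, 47.0 and 60.5 against 0.874 and 0. Both were higher in every C57BL/6J library, with log2 ratios of 5.77 ± 0.74 and 6.60 ± 0.86. All 5 called peaks nearest to Tlr4 itself were higher in BALB/cJ, but they lay 64.2 kb or more from its start. The nearest of these 5 lost its call with DESeq2 on all libraries and also without BALB/cJ library 2. The one with the most negative ratio, 651 kb away, had 2.81, 0 and 0 against 55.0 and 53.9 (log2 ratio -6.20 ± 0.87). Irak3, an inhibitor of the pathway, had an intronic peak with 79.9, 98.2 and 101.2 against 30.6 and 35.4 (log2 ratio 1.502 ± 0.39, adjusted p = 0.015), and this call was lost without either BALB/cJ library (highest adjusted p = 0.14). None of the 43 promoter peaks of the genes of NF-kB subunits, IKK kinases and their inhibitors was called. Over all tested peaks within 1 kb of a start 2.69% were called. Of all 224 peaks of these genes 1 was higher in C57BL/6J versus 2 in BALB/cJ (1.34%, median 0.05). Without C57BL/6J library 2 or BALB/cJ library 1 none of them was called, and without BALB/cJ library 2 the counts were 1 and 0.

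LPS-inducible cytokines and chemokines had 259 tested peaks, with 4 higher in C57BL/6J versus 5 in BALB/cJ (3.47%, median 0.05); without BALB/cJ library 2 the counts were 3 and 2. None of their 49 peaks at promoters was called, where the share over all tested peaks within 1 kb of a start was 2.69%. A peak 30.4 kb from the start of Il10, an anti-inflammatory cytokine of macrophages, had 30.9, 58.9 and 78.1 in C57BL/6J against 1.75 and 3.54 in BALB/cJ. The strains did not overlap, and the log2 ratio was 4.38 ± 0.70 (adjusted p = 7.4e-05). In the hybrid the C57BL/6J allele had 33.6 ± 9.73 and the BALB/cJ allele 0.800 ± 0.469 (SD, n = 5), an allele log2 ratio of 5.16 ± 0.43. Both called peaks near Il12b, which encodes the p40 subunit of IL-12 and IL-23, were higher in C57BL/6J. The peak 25.8 kb away had 36.5, 52.1 and 85.2 against 6.99 and 4.42 (log2 ratio 3.34 ± 0.63), and the peak 27.1 kb upstream had 37.9, 40.2 and 50.98 against 4.37 and 9.72 (log2 ratio 2.60 ± 0.46). Their allele log2 ratios were 1.72 ± 0.37 and 1.98 ± 0.40, in the same direction. Osm, a cytokine of the IL-6 family, went the other way: the peak 3.9 kb upstream had 1.40, 4.27 and 25.5 in C57BL/6J against 93.5 and 122 in BALB/cJ (log2 ratio -3.23 ± 0.51), with C57BL/6J library 3 the highest of its group but still below both BALB/cJ libraries. A peak 14.4 kb upstream of Il1b had 7.01, 4.27 and 7.97 against 39.3 and 54.8 (log2 ratio -2.87 ± 0.65). Its allele log2 ratio was -1.88 ± 0.30. The control means were low in both strains, 3.89 and 1.73, but the test of the strain ratio against controls given below made no call. The promoter of Tnf had 95.4, 138 and 105 against 115 and 115, with overlapping groups (log2 ratio -0.02 ± 0.37, adjusted p = 0.99).

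**Figure D2:**
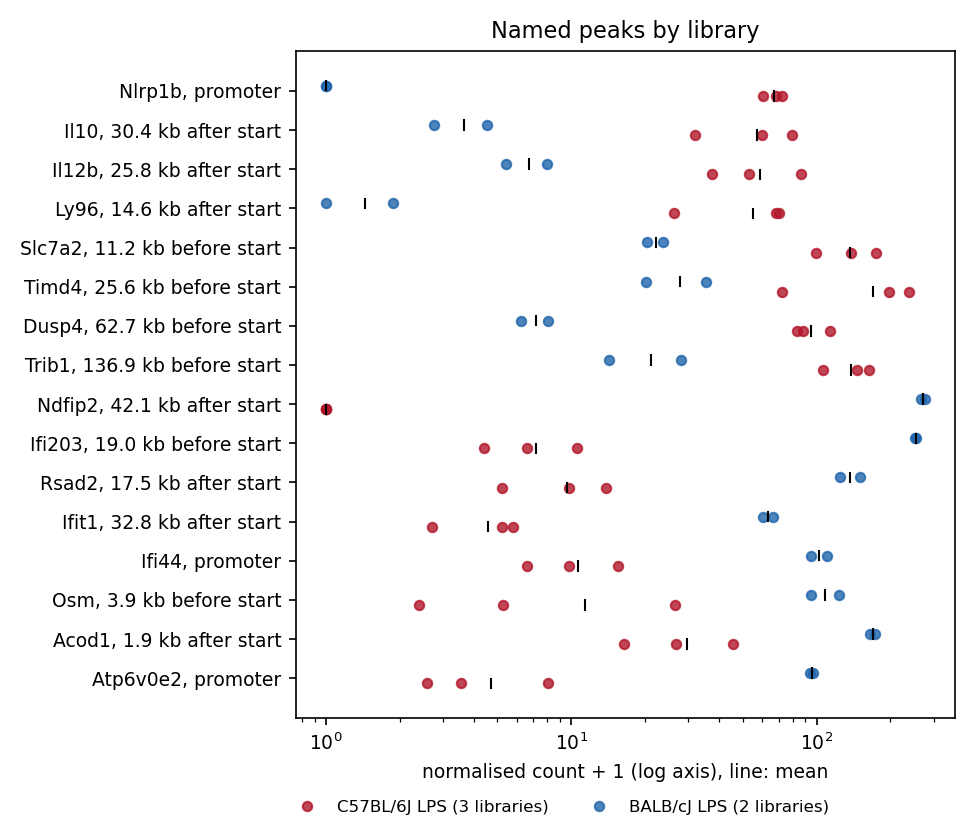
Normalised count plus 1 (horizontal log axis) at 16 peaks in each of 3 C57BL/6J (red) and 2 BALB/cJ (blue) LPS libraries, with a black line at the group mean. At all 16 peaks, which were picked from the called ones, the groups lie apart; at Osm the C57BL/6J libraries range from 1.40 to 25.5.

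Genes of the interferon response had the most BALB/cJ-higher calls of the pathway lists. Of 260 tested peaks 21 were higher in BALB/cJ and 8 in C57BL/6J (11.2%, against 5.06% of all peaks), but the median of 0.02 was close to that of all peaks. Without BALB/cJ library 1 these counts were 13 and 3, and without BALB/cJ library 2 they were 11 and 1. The C57BL/6J-higher peaks were 3 at Ifngr2, a subunit of the interferon gamma receptor, 2 at Ifi204 and 1 each at Ifnar2, Rsad2 and Ifit1bl1. Of the Ifi200 genes, which encode DNA sensors and related nuclear proteins, Ifi202b and Ifi203 had 3 BALB/cJ-higher peaks each, Ifi204 had 1, and Ifi205 and Ifi209 had no call. The peak 19.03 kb upstream of Ifi203 had 5.61, 3.42 and 9.56 in C57BL/6J against 252 and 254 in BALB/cJ (log2 ratio -5.30 ± 0.35, adjusted p = 1.4e-11), and the allele log2 ratio was -2.84 ± 0.13. An intronic peak of Ifi202b had 0, 2.56 and 0.797 against 129 and 197 (log2 ratio -6.92 ± 0.58). These genes are near-copies of each other, and 62.2% of the 30-base words of the Ifi203 peak occur elsewhere in mm10, so counts there are uncertain. The antiviral effector genes Mx1, Mx2, Ifit2, Ifit3, Oas1a, Oas2, Oas3, Isg15 and Cmpk2 had no call. However, Ifit3b, Oasl1 and Ifi44l each had 1 peak higher in BALB/cJ, with a log2 ratio of -9.05 at the only tested Ifi44l peak. Rsad2 encodes viperin and had 4 of 13 tested peaks higher in BALB/cJ. The peak 17.5 kb from its start had 4.21, 12.8 and 8.76 against 123 and 149 (log2 ratio -3.90 ± 0.39), with hybrid allele counts of 28.8 ± 12.4 for C57BL/6J and 214 ± 39.4 for BALB/cJ (SD, n = 5). Ifit1, an RNA-binding antiviral protein gene, had a peak with 4.21, 1.71 and 4.78 against 59.4 and 65.4 (log2 ratio -4.12 ± 0.51), and the promoter of Ifi44 had 5.61, 14.5 and 8.76 against 109 and 93.7 (log2 ratio -3.33 ± 0.43). Their allele log2 ratios were -2.36 ± 0.23 and -1.69 ± 0.19. The receptor gene Ifnar1 had an upstream peak with 2.81, 13.7 and 9.56 against 116 and 111 (log2 ratio -3.59 ± 0.32). Among the 41 promoters with a tested peak, counting the highest peak of each gene, 1 was higher in C57BL/6J versus 2 in BALB/cJ. Their median log2 ratio was 0.22. Over all tested peaks within 1 kb of a start 2.69% were called and the median was 0.18.

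MHC class II genes with Cd74 and Ciita had 58 tested peaks, of which 7 were higher in C57BL/6J versus 2 in BALB/cJ (15.5%, median 0.33); without C57BL/6J library 2 these counts were 4 and 1, without BALB/cJ library 1 also 4 and 1, without C57BL/6J library 1 or BALB/cJ library 2 they were 5 and 1, and without C57BL/6J library 3 they were 10 and 2. Cd74 encodes the invariant chain, and a peak 496 bases past its start had 96.8, 84.6 and 77.3 in C57BL/6J against 0 and 0 in BALB/cJ, at least 65.4-fold higher. The promoter of H2-Aa, an antigen-presenting chain, had 154, 161 and 155 against 62.9 and 74.3 (log2 ratio 1.19 ± 0.26, adjusted p = 0.0032). The groups did not overlap, but the call was lost without BALB/cJ library 1 (adjusted p = 0.071) and, by falling just under a log2 ratio of 1, with scaling along a loess curve. H2-DMb1, a peptide-loading chain, had an upstream peak in the other direction, with 8.42, 5.98 and 4.78 against 84.8 and 76.0 (log2 ratio -3.68 ± 0.52) and an allele log2 ratio of -2.12 ± 0.20. Of 43 peaks at MHC class I and peptide-loading genes 1 was higher in C57BL/6J versus 2 in BALB/cJ (6.98%, median 0.10), and both of the latter were at H2-D1, with 187, 243 and 164 against 488 and 504 at its promoter (log2 ratio -1.32 ± 0.21). Without BALB/cJ library 1 the class I counts were 0 and 1, and without C57BL/6J library 1 or 3 they were 1 and 4 or 0 and 5. The strains carry different MHC haplotypes and these genes have near-identical copies, so these counts are uncertain.

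Arginine, itaconate, prostaglandin and glycolysis genes had 165 tested peaks, with 3 higher in C57BL/6J versus 9 in BALB/cJ (7.27%, median -0.07); without BALB/cJ library 2 the counts were 3 and 4. The C57BL/6J-higher ones were all at Slc7a2, which encodes the inducible arginine transporter CAT2. Its peak 11.2 kb upstream had 98.2, 137 and 174 in C57BL/6J against 22.7 and 19.4 in BALB/cJ (log2 ratio 2.69 ± 0.36, adjusted p = 3.8e-06), a neighbour 10.3 kb upstream had 26.6, 80.3 and 124 against 6.99 and 8.84 (log2 ratio 3.29 ± 0.66), and C57BL/6J was higher in every library at both. The call at the remaining one, 28 kb inside the gene, was lost without BALB/cJ library 1 (adjusted p = 0.071). The windows of the first pair overlap in part, so they share tags, and on the hybrid alleles the second had a log2 ratio of 2.71 ± 0.42. The Slc7a2 promoter had 28.1, 38.4 and 26.3 against 5.24 and 18.6 and was not called (log2 ratio 1.38 ± 0.65, adjusted p = 0.24). Slc7a11, the cystine transporter gene, had 6 of 9 tested peaks higher in BALB/cJ, of which 2 lost the call without BALB/cJ library 2, where 2 more fell below the minimum for testing; 1 of the former also lost it without BALB/cJ library 1. Some of these 6 peaks lie in pairs whose counting windows overlap in part, so such pairs share tags. The Slc7a11 peak 60.7 kb inside the gene had 11.2, 4.27 and 17.5 against 83.9 and 79.6 (log2 ratio -2.88 ± 0.49). Acod1 makes itaconate, an antimicrobial metabolite of activated macrophages, and a peak in it had 15.4, 25.6 and 44.6 against 164 and 172 (log2 ratio -2.52 ± 0.42). Plac8, which the study used as an example together with Slc7a2, had an intronic peak with 74.3, 51.3 and 67.7 against 5.24 and 7.07 (log2 ratio 3.36 ± 0.50). The promoter of Med21, a Mediator subunit and another example, was not called, with 302, 230 and 245 against 230 and 193 (log2 ratio 0.29 ± 0.16, adjusted p = 0.36). Of the 49 peaks at the 7 genes the study chose as examples, 5 were higher in C57BL/6J versus 1 in BALB/cJ (12.2%, median 0.16); the study chose them on its own samples, so their direction is no independent evidence, and without BALB/cJ library 1 the counts were 3 and 0.

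AP-1, ATF, EGR and MAF factor genes, whose products bind LPS-responsive enhancers, had 299 tested peaks, 7 higher in C57BL/6J versus 3 in BALB/cJ (3.34%, median 0.06). Without C57BL/6J library 1 the counts were 4 and 2, without C57BL/6J library 3 they were 11 and 5, and without either BALB/cJ library 4 and 0. A peak at the start of Egr1, an immediate early gene, had 265, 119 and 40.6 in C57BL/6J against 13.1 and 25.6 in BALB/cJ (log2 ratio 2.81 ± 0.66, adjusted p = 0.0072). A peak at the start of Fos had 303, 149 and 103 against 67.3 and 76.9 (log2 ratio 1.33 ± 0.29, adjusted p = 0.0039). At both C57BL/6J library 1, the shallowest and richest in promoter tags, stood highest. The strains were closer in controls, with means of 446 and 237 at Egr1 and 360 and 306 at Fos. However, the interaction test given below, of the strain ratio under LPS against that in controls, called neither peak. The Egr1 call was lost without either BALB/cJ library (highest adjusted p = 0.13). The Fos call was lost without C57BL/6J library 1, without BALB/cJ library 1 and in the 5 LPS libraries alone (highest adjusted p = 0.084). Genes of MAP kinase phosphatases, mRNA decay and SOCS feedback had 181 tested peaks, 5 higher in C57BL/6J versus 4 in BALB/cJ (4.97%, median -0.00); without BALB/cJ library 1 the counts were 4 and 0 and without BALB/cJ library 2 they were 2 and 1. Of the BALB/cJ-higher peaks, 2 were nearest to the phosphatase gene Dusp5, which had 6 tested peaks and a median log2 ratio of -1.27. Dusp4, a phosphatase of MAP kinases, had a peak 62.7 kb upstream with 112, 87.1 and 82.1 against 5.24 and 7.07 (log2 ratio 3.90 ± 0.60). Its allele log2 ratio was 1.78 ± 0.27. Trib1, a pseudokinase gene needed for tissue macrophages, had a distal peak with 105, 162 and 145 against 27.1 and 13.3 (log2 ratio 2.77 ± 0.34) and an allele log2 ratio of 1.58 ± 0.31. C57BL/6J was higher in every library at both.

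Kupffer cell identity genes had 294 tested peaks, 11 higher in C57BL/6J versus 8 in BALB/cJ (6.46%, median -0.03). Without BALB/cJ library 1 these counts were 7 and 4, and without BALB/cJ library 2 they were 6 and 2. The scavenger receptor gene Marco held 6 of the former among its 20 tested peaks, and one 37.5 kb from its start had 79.9, 50.4 and 67.7 against 8.74 and 0 (log2 ratio 3.88 ± 0.66). Timd4, the phosphatidylserine receptor of resident macrophages, had peaks in both directions. The one 25.6 kb upstream had 71.5, 196 and 237 against 19.2 and 34.5 (log2 ratio 2.66 ± 0.49), and the one 35.4 kb from the start had 4.21, 12.8 and 13.5 against 45.4 and 43.3 (log2 ratio -2.04 ± 0.42). Clec4f, a lectin made almost only by Kupffer cells, had an upstream peak with 2.81, 2.56 and 0 against 33.2 and 62.8 (log2 ratio -4.82 ± 0.78). No promoter of the 22 identity genes with a tested promoter peak was called, where 2.69% of all tested peaks within 1 kb of a start were called. Of 166 peaks at LXR target and lipid genes, 1 was higher in C57BL/6J versus 3 in BALB/cJ (2.41%, median -0.11); without BALB/cJ library 1 these were 6 and 1, and without BALB/cJ library 2 they were 0 and 1. Inflammasome and pyroptosis genes had 3 and 1 among 81 (4.94%, median 0.04), 2 of the 3 being the Nlrp1b peaks. Without BALB/cJ library 1 these were 3 and 0, and without BALB/cJ library 2 they were 2 and 0. Of the marker lists, Kupffer cell markers had 11 and 5 of 111 peaks called (14.4%, against 5.06% of all peaks), from genes that the identity list shares. Monocyte markers had 2 and 2 of 44 (9.09%), lymphocyte markers 1 and 0 of 16 (6.25%) and endothelial markers 0 and 2 of 37 (5.41%). The lymphocyte and endothelial shares were close to that of all peaks. Without BALB/cJ library 1 or 2 the Kupffer marker counts were 7 and 3 or 5 and 1, and the monocyte counts 1 and 0 or 1 and 1. The lymphocyte call was lost without C57BL/6J library 2 or BALB/cJ library 1, and the endothelial counts were 0 and 4 without C57BL/6J library 1 and 0 and 1 without BALB/cJ library 2. Markers of neutrophils, hepatocytes and stellate cells had no call among 3, 17 and 1 peaks. The only called promoter peak of a marker, at the monocyte marker Cx3cr1, had 7.01, 10.3 and 3.19 against 55.9 and 37.1 (log2 ratio -2.77 ± 0.54).

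**Figure D3:**
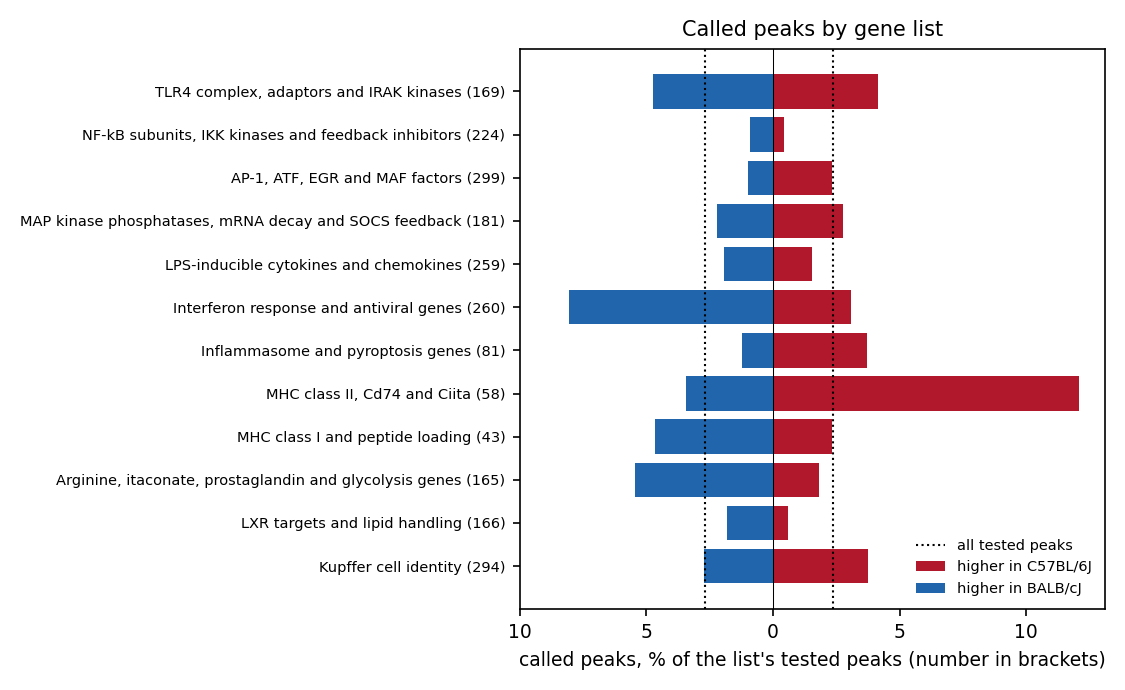
Called peaks as a percent of the tested peaks of 12 gene lists, higher in C57BL/6J to the right (red) and higher in BALB/cJ to the left (blue); numbers of tested peaks stand in brackets and dotted lines mark all tested peaks, 2.36% and 2.7%. The longest bars are MHC class II toward C57BL/6J (7 of 58 peaks) and the interferon response toward BALB/cJ (21 of 260).

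In the main fit, median log2 ratios of the pathway lists lay within 0.16 of 0 except at MHC class II genes (0.33). Over the alternatives, apart from the one without a count minimum, the MHC class II median ran from 0.25 to 0.50. The medians of the study's examples (0.12 to 0.33), NF-kB genes (0.01 to 0.18) and AP-1 genes (0.03 to 0.18) also stayed above 0. Those of all other pathway lists lay on both sides of 0, and the MHC class I median reached 0.26. Some of the peaks given above were chosen after their values were seen: those of Ifi44, Rsad2, Ifnar1, H2-Aa, Fos and Slc7a11, the second of Ly96, the peak of Slc7a2 inside the gene, the nearest of Tlr4, and the second peaks of Il12b and Timd4.

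The untreated libraries share none with the LPS comparison and gave a second measurement of the strain ratio. Among the C57BL/6J-higher peaks 1006 had enough counts in the controls, and 586 of these (58.3%) were called higher in C57BL/6J there, against 2.83% of all 51164 peaks tested in controls. Among the BALB/cJ-higher peaks 993 had enough counts and 728 (73.3%) were called higher in BALB/cJ, against 4.44% of all. The opposite direction was called at 18 and 0 peaks. The median control log2 ratios at the same peaks were 1.36 and -1.72, beside 1.84 and -1.77 under LPS. The peaks were called on the LPS ratio, which favours large values of it, so the gaps do not measure a weaker difference in controls. A further 371 and 579 peaks fell below the count minimum in the controls and were not tested there.

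The hybrid alleles gave another measurement, again on separate libraries, at the peaks with enough tags over a known variant. Of 6727 peaks tested there, 10.4% were called higher on the C57BL/6J allele and 8.29% on the BALB/cJ allele. At the C57BL/6J-higher peaks 399 were tested and 287 (71.9%) were called on the C57BL/6J allele, and at the BALB/cJ-higher peaks 429 were tested and 265 (61.8%) were called on the BALB/cJ allele. The opposite allele was called at 0 and 1 peaks, the latter being 9530026P05Rik (strain log2 ratio -5.46 ± 0.59, allele log2 ratio 2.03 ± 0.32). The median allele log2 ratios were 1.72 and -1.37, beside strain ratios of 2.53 and -2.30 at the same peaks. These peaks were called on the strain ratio under LPS, which favours large values of it. The gap between the medians is thus no measure of a weaker allele difference. The share called on the same allele rose with the strain ratio, from 41.1% at absolute log2 ratios of 1 to 2 to 98.4% above 5 for C57BL/6J-higher peaks, and from 32.4% to 96.2% for BALB/cJ-higher peaks. An allele log2 ratio below 0.5 in size was found at 50 and 55 peaks (12.5% and 12.8%, against 62.4% of 5321 tested in both). Among these, the peak 10.2 kb upstream of Tmem229b had 44.9, 35.9 and 37.4 in C57BL/6J against 177 and 206 in BALB/cJ (log2 ratio -2.29 ± 0.30), and the hybrid alleles had 21.0 ± 4.95 and 20.7 ± 8.19 (SD, n = 5). A peak 5.7 kb upstream of Il4ra, the IL-4 receptor chain, had 54.7, 64.9 and 94.8 against 14.9 and 15.0 (log2 ratio 2.26 ± 0.42) and an allele log2 ratio of 0.32 ± 0.19. An upstream peak of the early gene Nr4a1 had 94.0, 58.9 and 47.0 against 20.1 and 13.3 (log2 ratio 1.96 ± 0.35) and an allele log2 ratio of 0.49 ± 0.25. At these peaks the inbred strains lay apart and the alleles were within 0.5 on the log2 scale. Of the C57BL/6J-higher peaks tested in both controls and alleles, 180 of 301 were called in both, 41 only in controls, 18 only on alleles and 62 in neither; for BALB/cJ-higher peaks these counts were 168, 96, 14 and 30 of 308.

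**Figure D4:**
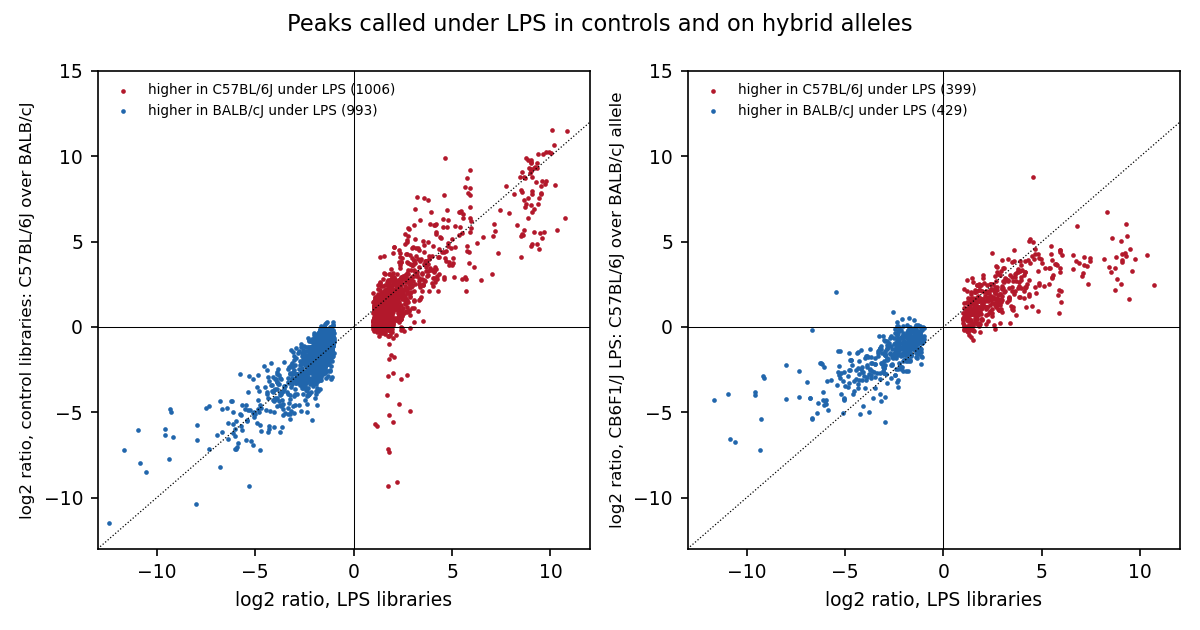
Strain log2 ratio under LPS (horizontal axes) against the control log2 ratio (left; 1006 and 993 peaks) and the hybrid allele log2 ratio (right; 399 and 429 peaks), all C57BL/6J over BALB/cJ, for peaks called under LPS; the dotted line marks equal ratios. Most points lie in the quadrants of equal sign, and the C57BL/6J-higher peaks with strongly negative control ratios include those of an interval on chromosome 11, such as Sfi1 at -9.32.

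Whether the strain ratio under LPS differed from that in the controls was tested as an interaction, which uses the same LPS libraries as the strain comparison. It also rests on the C57BL/6J controls, which hold 0 mitochondrial tags. In the BALB/cJ controls 19.9% to 25.8% of the tags in peaks were mitochondrial. Whether this difference bears on the calls was not tested. The interaction was called at 128 peaks (0.22% of tested peaks), of which 42 were also called under LPS. Of these 42, 16 lay in one interval at chr11:3127251-3183527 (mm10) around Pisd-ps1 and Sfi1, which held 68 of the 128 calls and where the C57BL/6J controls had few tags, with means of 0 to 9.56 at these 16. At a Pisd-ps1 peak 19.36 kb inside the gene the LPS counts were 95.4, 33.3 and 47.8 against 11.4 and 13.3, and the control means were 0 in C57BL/6J and 45.3 in BALB/cJ; the LPS call there was lost without BALB/cJ library 1 (adjusted p = 0.055). With the interval left out, 13 peaks were called in both tests, and without BALB/cJ library 2 the count was 6, the interval included. Elsewhere, Ifi203 had a larger strain ratio under LPS (-5.30) than in controls (-2.88; interaction -2.42 ± 0.44, adjusted p = 0.0047). The distal Trib1 peak had a smaller one under LPS (2.77) than in controls (5.81; interaction -3.04 ± 0.50, adjusted p = 8.7e-04), with BALB/cJ means of 20.2 after LPS and 2.48 in controls. A peak near Cd200, an inhibitory ligand of myeloid cells, had C57BL/6J means of 40.8 after LPS and 1.65 in controls and a strain ratio of -2.13 against -5.43 (interaction 3.30 ± 0.69, adjusted p = 0.024). A peak near the start of Hif3a, a hypoxia factor, chosen after its values were seen, was called under LPS and not in controls, with 153, 82.9 and 156 against 28.0 and 20.3, while control means were 60.7 and 61.4 (interaction 2.45 ± 0.46, adjusted p = 0.0069).

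The same pair of dates appears in the names of the hybrid LPS libraries, 3 with the later and 2 with the earlier date, all of one genotype. Compared by date, 0 of 145661 peaks were called (0%), with an unadjusted p under 0.05 at 4.9%. Thinned to the depth of the inbred libraries, 0 of 55421 were called (0%), with 5.68% at an unadjusted p under 0.05. The 5 inbred LPS libraries alone, also 3 against 2, gave 2022 calls of 60510 and an unadjusted p under 0.05 at 17.5%. At the peaks called between the strains the median log2 ratio by date was -0.09 for peaks higher in C57BL/6J, -0.17 for those higher in BALB/cJ, beside -0.11 over all tested peaks, and it exceeded 1 in size at 15 of 2432 peaks. The dates are known only from the names, and what was done on them is not stated.

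**Figure D5:**
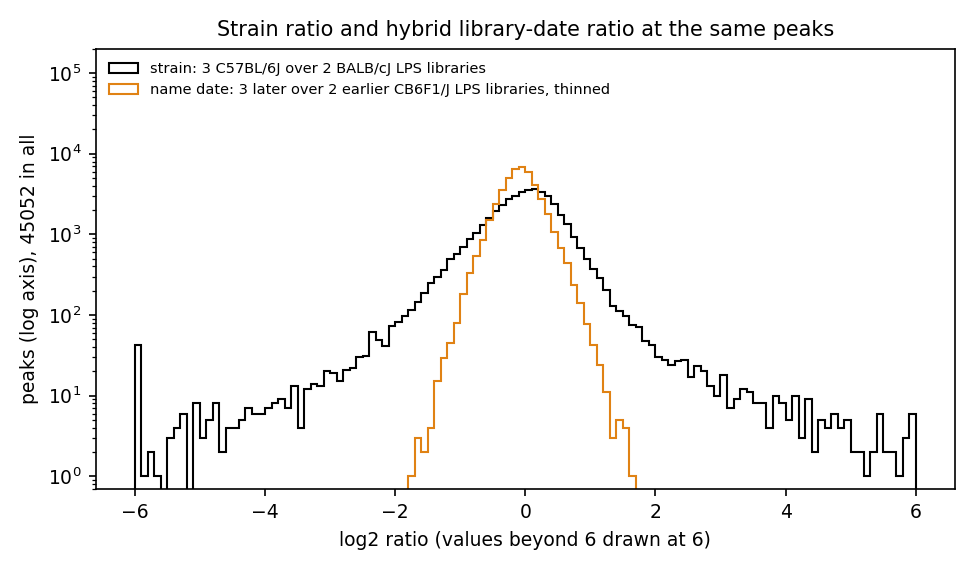
Numbers of peaks (vertical log axis) by log2 ratio (horizontal axis) for the strain ratio under LPS (black) and for the later over the earlier name date among CB6F1/J LPS libraries thinned to the inbred depth (orange), at 45052 peaks tested in both. The date ratio exceeds 1 in size at 0.597% of peaks and the strain ratio at 11.3%.

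The short motifs spelled out above were searched on both strands of the peaks and counted at 43628 tested peaks over 1 kb from a start, as a description of mm10 letters. AP-1 letters occurred in 22.3% of all these peaks, in 19.2% of the 1119 C57BL/6J-higher and in 28.6% of the 1437 BALB/cJ-higher peaks. The MAF arm occurred in 6.6%, 5.9% and 9.95%, and its last bases can overlap an AP-1 match. PU.1 letters occurred in 10.8%, 11.8% and 9.46%, C/EBP letters in 14.1%, 14.6% and 13.4%, IRF letters in 10.3%, 12.2% and 8.21%, and NF-kB letters in 5.29%, 5.45% and 3.9%. Of the peaks also called on the same hybrid allele, 273 were higher in C57BL/6J against 253 in BALB/cJ, and the shares in this order were 26% and 29.6% for AP-1 letters, 7.69% and 11.1% for the MAF arm and 14.7% and 9.88% for PU.1 letters. They were 17.2% and 11.1% for C/EBP letters, 9.89% and 9.49% for IRF letters and 6.96% and 5.14% for NF-kB letters. No difference between these shares was tested.

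Repeated sequence touched a small part of the calls. Peaks of which 50% or more of the 30-base words occur elsewhere in mm10 made up 2.54% of C57BL/6J-higher, 1.21% of BALB/cJ-higher and 0.508% of all tested peaks. Among peaks higher in C57BL/6J the highest count lay at a satellite peak nearest to Lrrc4c on chromosome 2, where C57BL/6J library 1 stood apart with 12858 against 2020 and 2510 in the other C57BL/6J libraries and 1527 and 1368 in BALB/cJ. This call was lost without C57BL/6J library 1 or BALB/cJ library 2 (highest adjusted p = 0.11). The most negative ratio of all was at a peak nearest to Col19a1 on chromosome 1, with 2.81, 2.56 and 2.39 in C57BL/6J against 18357 and 10355 in BALB/cJ (log2 ratio -12.41 ± 0.43), and 82.6% of its 30-base words also occur in the mitochondrial genome. The share of tags in such peaks was 0.562% and 0.313% in BALB/cJ and below 0.0024% in C57BL/6J, and without them 2950 peaks were called.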

How the data were processed

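ATAC-seq was analysed in 3 C57BL/6J and 2 BALB/cJ LPS libraries, with 12 control libraries (4 each of C57BL/6J, A/J and BALB/cJ) in the same model and 5 CB6F1/J LPS libraries apart. The authors trimmed reads to 30 bp, mapped them with Bowtie2 to mm10 or to a BALB/cJ genome made by placing variants in mm10, moved positions to mm10, and merged reproducible peaks. The LPS columns hold raw counts in windows of 1000 bp, as deposited. The control columns and hybrid columns, which the authors made in the same way, step by 0.5 tags and were treated as estimated counts rounded to whole numbers (0.5 upward). The per-library peak lists hold a HOMER signal, which the authors scaled to library size, and gave total tags only. Tool versions of the authors' steps are not given in the sources used here, and the authors' own comparisons were not used. Per the file headers, positions of both strains' LPS libraries were moved between genomes, and no shift for the transposase is named. The C57BL/6J controls hold 0 mitochondrial tags.

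Sex and mitochondrial chromosomes were left out. edgeR 4.0.16 in R 4.3.3 (TMM, quasi-likelihood F test, a mean per group over 17 libraries) was run on peaks with a mean normalised count above 16. Peaks were called at a Benjamini-Hochberg adjusted p under 0.05 and an absolute log2 ratio over 1. For the hybrid, tags over a variant were compared between alleles with the animal as a block, at peaks matched with 50% reciprocal overlap. Normalised counts are scaled to the geometric mean library size. DESeq2 1.42.0, other scalings, count minima, sample sets and left-out libraries were alternatives. With 3 against 2 libraries the smallest one-sided exact permutation p is 0.1, so no such test is given. The fit was tested on simulated data with known changes. A peak went to the gene with the nearest start, which need not be the gene it acts on. Members and gene lists were chosen with earlier results of these data known.

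Peaks named were the 12 largest ratios each way within 100 kb of a gene and without overlap between groups. Also named were up to 4 genes a list, the study's examples and the 8 largest each way within 1 kb of a start. The 5 highest counts each way and the 8 largest interactions each way were named too. For the hybrid these were the 6 each way with the smallest strain p and a call on the same allele. A further 6 each way had the smallest strain p among peaks with an allele log2 ratio below 0.5 in size. Others are said to have been chosen after their values were seen. Counts limit precision at low peaks, and floors of 3 counts over a group cover counting error only.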

Additional observations from a re-analysis of the deposited data

Results flagged for a closer look

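At 42 peaks the strain ratio under LPS differed from that in controls by the test of the difference itself, and 16 of them lay in the chromosome 11 interval near Pisd-ps1 and Sfi1. The C57BL/6J controls, unlike the other inbred libraries, hold 0 mitochondrial tags, and the part of this in these calls was not tested. One BALB/cJ control library stood apart from the other BALB/cJ controls, with 46.4 M autosomal tags, and one C57BL/6J control library from its group, with 7.41 M. Chance alone marks about 1 in 20 groups in this way.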

How the results depend on the processing

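Of 2949 peaks called between the strains under LPS, other settings gave 5177 (mean count above 4), 5258 (no minimum), 1416 (above 32), 1183 (libraries thinned to the smallest), 1697 (adjusted p under 0.01) and 1566 (log2 ratio over 2). Leaving out 1 library gave 1233 to 2860; the C57BL/6J-higher share of calls was 64.04% without BALB/cJ library 1 and 46.7% with all. DESeq2, other scalings and other sample sets gave 2022 to 3223. Of the 1314 peaks also called in controls, the same count settings gave 3024, 3211, 526 and 455, the higher ratio limit 633, and left-out libraries 754 to 1256. Of the 42 peaks also called in the interaction, DESeq2 gave 65, thinning 14, adjusted p under 0.01 12, log2 ratio over 2 20, and left-out libraries 6 to 48. Without the chromosome 11 interval, an alternative chosen after seeing the data, 13 were called. Of the 552 peaks called on the same hybrid allele, a hybrid minimum of 32 gave 300 and left-out libraries, inbred or hybrid, 352 to 565. Where 1 BALB/cJ library was left out, the remaining one is assumed to vary like the other groups. No named peak with alternatives run reversed, and 98 of 180 called ones kept their call under every alternative run for them; the Hif3a peak had no alternative run. The causes of these changes were not tested.

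A replicate block on the 5 LPS libraries gave 2150 calls, 912 and 1238. Deviations of libraries with the same number correlated at 0.107 and 0.067, but with 2 BALB/cJ libraries the unmatched values mirror these, and C57BL/6J library 3 correlated at 0.083 with BALB/cJ library 2, so this check cannot show a pairing. No label ties the numbers to a shared animal or batch. Without the block on the hybrid alleles, 558 peaks had the same direction.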
